A study of Mus musculus with 16 samples.

Results

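The step from the late 2-cell to the 4-cell embryo was described across genes in mouse embryos, from 4 of the 16 arrays of the series. The members were the arrays whose stage label read 4-cell or 2-cell late, 2 of each, and the features were the 30646 array rows that carry exactly 1 gene symbol (30184 genes), out of 72688 rows in the table. The embryos came from B6C3F1 females mated with CD1 males, and zygotes were cultured inside the zona in KSOM(aa) medium under CO2. On 1 array of each stage the embryos came from superovulated females, given 10 IU PMSG and 10 IU hCG 48 h later, and on the other from females in a natural cycle that received no hormone. Each array held the equivalent of 20 embryos drawn from lysates that had been pooled by stage, from 4 collection runs (n = 3096) for superovulated females and 9 runs (n = 989) for natural-cycle females. The 4-cell embryos were labelled as 2 days after fertilization and the late 2-cell embryos as 1 day after it. Thus each stage had 1 pooled array per hormone background, and there was no replicate array within a background. The p-values of the step rest on how far the difference between backgrounds departed, stage by stage, from its average over all 16 arrays. That spread mixes any hormone effect particular to a stage with array noise, and it is not a spread between pools of the same kind.

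In the mouse, the egg carries a store of maternal RNA, and the embryo's own genome is switched on in a minor wave in the zygote and a major wave in the 2-cell embryo. The 2-cell wave includes a brief burst of genes and retroelements, among them the Zscan4 and Usp17l families, which is shut down again as the embryo cleaves. Between the late 2-cell and 4-cell stages maternal RNAs continue to be cleared while RNAs for growth and for later lineage decisions accumulate, and in female embryos the paternal X chromosome begins to express Xist.

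Values are log2 array signals as deposited. The level of silent genes was taken as the 95th percentile of 1772 rows for olfactory, vomeronasal and taste receptors on the same array. It was 4.88 and 5.01 on the superovulated and natural-cycle 4-cell arrays, and 5.04 and 5.29 on the superovulated and natural-cycle late 2-cell arrays. The share of rows above it was 52.8% and 49.6% at 4-cell, and 50.4% and 45.7% at late 2-cell. Each change is 4-cell minus late 2-cell within a background, averaged over both, and a row was called changed at an adjusted p below 0.05 (limma over all 16 arrays, Benjamini-Hochberg over all tested rows). Array values depend on the probes of a row, so levels were compared only within a row.

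The stage labels were checked on marker genes. The 2-cell burst gene Usp17lb, a deubiquitinase, had values of 8.82 and 7.77 at 4-cell, against 12.20 and 10.88 at late 2-cell, and these values stood between 13.60 at early 2-cell and 6.68 at 8-cell (means of both backgrounds). Of the other burst markers Tdpoz3 (-1.53) and Zfp352 (-1.53) were called lower, while Zscan4c (-1.60) and Zscan4d (-1.73) were not. Among oocyte markers Bmp15 (-1.91) was called lower, while Gdf9 (-0.30) and Zp3 (-0.14) were not. Nanog, a transcription factor of the inner cell mass, read 8.83 and 8.11 at 4-cell, against 5.22 and 6.05 at late 2-cell. Cdx2, which marks trophectoderm, lay at the level of silent genes on all 4 arrays (4.68 and 4.48, against 4.76 and 4.68), as did Sox17 of primitive endoderm. Of 20 cumulus and granulosa markers, 4 and 4 were above the level of silent genes at 4-cell, against 5 and 2 at late 2-cell. Their summed signal (log2) was 12.35 and 11.72 at 4-cell, against 11.30 and 11.11 at late 2-cell, and its highest member was Amhr2 (12.24 and 11.49, against 10.98 and 10.83), a hormone receptor. Of 15 sperm markers 2 to 4, and of 13 oviduct, blood and immune markers 4, were above that level on each of the 4 arrays. Among these 3 lists only Ms4a1 was called (5.73 and 6.52 at 4-cell, against 7.40 and 7.43, adjusted p = 0.0195 by limma). The part of such cells in the results was not tested.

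A total of 635 rows changed in the step, or 2.07% of those tested, of which 310 were higher (1.01%) and 325 lower (1.06%) at 4-cell. At least a 2-fold change was seen for 568 of them, 283 higher and 285 lower. Of the rows called higher, 28 were at or below the level of silent genes on both late 2-cell arrays (3 of them on all 4 arrays), whereas 269 were above it on both. Of the rows called lower, 31 were at or below that level on both 4-cell arrays (10 of them on all 4 arrays) and 277 were above it on both. The rows of known protein-coding genes numbered 225 of the 310 rises and 224 of the 325 falls, against 19304 of the 30646 tested rows. The 4-cell and late 2-cell arrays did not overlap in any of the 635 called rows, which the test itself favours, against 43.8% of all tested rows. The median change of all rows was 0.00 on the log2 scale, and that of the 15097 rows above the level of silent genes on both arrays of a stage was 0.02. The number of calls rested on each pool and on the spread borrowed from other stages. When 1 pool was left out, 104 rows were called if it was the superovulated 4-cell pool and 3 if it was the natural-cycle 4-cell pool. Leaving out a late 2-cell pool gave 397 calls (70 of them higher) for the superovulated and 538 for the natural-cycle one. Fitted on the 4 arrays alone, no row was called by limma, although 5165 rows had an unadjusted p below 0.05.

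**Figure D1:**
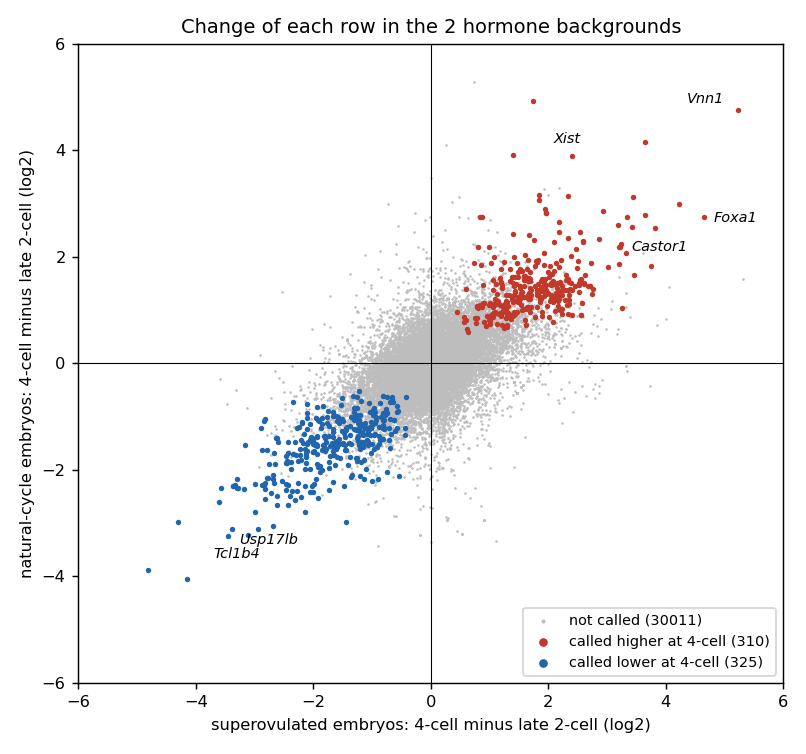
Change of each tested row (4-cell minus late 2-cell, log2) in superovulated embryos (x axis) and natural-cycle embryos (y axis), each point 1 row, red called higher, blue called lower and grey not called. The 310 red and 325 blue rows lie in the quadrants where both backgrounds moved the same way, which the averaged test selects for.

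Taken separately, and without a test since each has 1 array per stage, superovulated embryos had 1589 rows at least 2-fold higher (5.19%) and 1299 at least 2-fold lower (4.24%) at 4-cell. In natural-cycle embryos 959 rows were at least 2-fold higher (3.13%) and 1353 at least 2-fold lower (4.41%). With arrays centred on the housekeeping mean the balance turned in superovulated embryos, with 1378 rows higher and 1534 lower, and natural-cycle embryos had 933 higher and 1374 lower. Rows that passed 2-fold in both were 478 for rises and 486 for falls, that is 30.1% of the superovulated and 49.8% of the natural-cycle rises, and 37.4% of the superovulated and 35.9% of the natural-cycle falls. Only 18 rows passed 2-fold in opposite directions. Across the 30646 rows the 2 changes correlated with r = 0.53, a description over rows that share probes, pools and array signal.

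The largest rise was that of Vnn1, a cell-surface pantetheinase that splits pantetheine into vitamin B5 and cysteamine. Vnn1 read 9.86 and 9.57 in superovulated and natural-cycle 4-cell embryos, against 4.64 and 4.80 in the corresponding late 2-cell embryos. All late 2-cell values lay below the level of silent genes, so the 31.8-fold change (4.99 ± 0.29 SE log2, adjusted p = 3.9e-05, limma) is a size on the array's scale only. At 8-cell the mean value was 14.85. It was one of 2 named genes that kept the call in every refit that left out 1 array. The other was Sycn, which encodes the zymogen-granule protein syncollin. Sycn read 7.80 and 7.65 at 4-cell, against 4.16 and 4.87 at late 2-cell, a change of 3.21 ± 0.27 SE (adjusted p = 0.0011).

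A signalling co-receptor and a regulator of endoderm were also among the rises. Tdgf1, the Nodal co-receptor Cripto, had 7.29 and 7.86 at 4-cell, against 4.96 and 4.73 at late 2-cell, and its pseudogene Tdgf1-ps1 had 7.01 and 7.31, against 3.36 and 3.15. The values of both late 2-cell arrays were below the level of silent genes for each, and as the copies are alike in sequence their signals may not be separable. Foxa1, a forkhead factor known for opening chromatin in endoderm, reached 9.67 and 8.42 at 4-cell, against 5.01 and 5.67 at late 2-cell (3.70 ± 0.60 SE, adjusted p = 0.0168). Its mean course ran 4.50, 5.34, 9.05, 9.85, 9.25 and 4.58 from early 2-cell to blastocyst, so the rise was followed by a low blastocyst value. Anpep, the surface aminopeptidase N, had a similar course. It read 10.99 and 10.63 at 4-cell, against 6.76 and 7.64 at late 2-cell, and averaged 6.87 in blastocysts.

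Xist, the non-coding RNA that coats the X chromosome to be silenced, had 10.12 and 11.77 at 4-cell, against 7.71 and 7.88 at late 2-cell (3.15 ± 0.53 SE, adjusted p = 0.0189). The natural-cycle embryos showed the larger change (3.90, against 2.40 in superovulated embryos), but the difference did not pass its test (adjusted p = 1.00). From the stage means, Xist stood at 5.68 at early 2-cell and 14.88 in morulae. The labels give no sex for the embryos, so each value is an average over the pool. On the Y chromosome, Uba1y, a ubiquitin-activating enzyme, was the 1 of 8 Y-linked genes called, with 6.91 and 7.20 at 4-cell, against 5.42 and 5.49 at late 2-cell.

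Among the enzymes and sensors, Gulo, which makes the last step of vitamin C synthesis, read 10.84 and 10.41 at 4-cell, against 7.08 and 8.58 at late 2-cell. Castor1, the arginine sensor upstream of mTORC1, read 13.46 and 11.001 at 4-cell, against 10.22 and 8.75 at late 2-cell (2.74 ± 0.48 SE, adjusted p = 0.0198). Here the natural-cycle 4-cell value stood below the superovulated 4-cell value by more than 2 log2 units, and the late 2-cell values were ordered in the same way. The lower 4-cell value (11.001) was still above the higher late 2-cell value (10.22). Mov10, an RNA helicase that restrains retroelements, had 8.32 and 8.44 at 4-cell, against 5.38 and 5.58 at late 2-cell. The remaining large rises were those of Proser1, the basement membrane protein gene Nid1, the 14-3-3 sigma gene Sfn, the filamin-binding refilin gene Rflnb and the non-coding AY036118, with changes between 2.69 and 3.18.

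**Figure D2:**
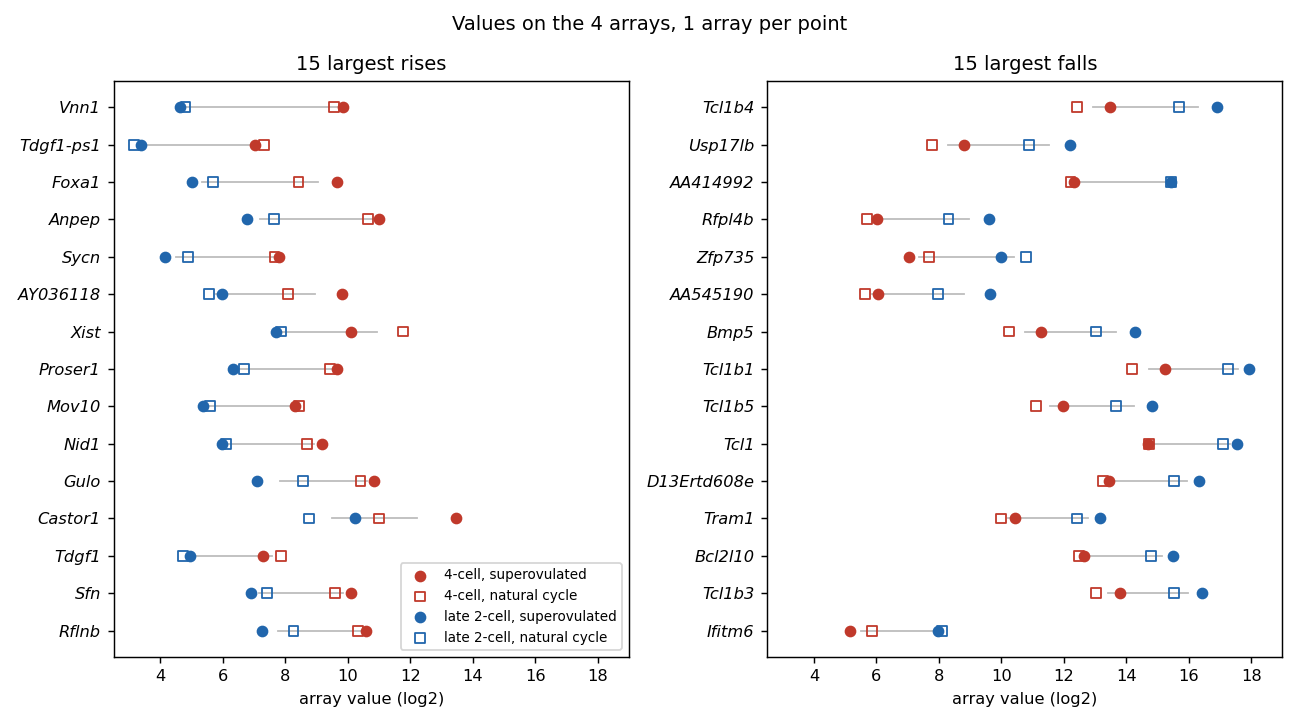
Array values (log2, x axis) of the 15 named genes with the largest rises (left) and falls (right), with 1 point per array, red for 4-cell and blue for late 2-cell, filled circles for superovulated and open squares for natural-cycle embryos. A grey line joins the stage means, and within every gene the 2 stages do not overlap, as for Vnn1 at 9.86 and 9.57 against 4.64 and 4.80.

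The falls were led by the Tcl1 family, oocyte-expressed coactivators of the kinase Akt that lie next to each other on chromosome 12. Tcl1b4 read 13.46 and 12.43 at 4-cell, against 16.92 and 15.67 at late 2-cell, the largest fall of a named gene (fell by 3.35 ± 0.58 SE, adjusted p = 0.0196, limma). Tcl1b1 had 15.24 and 14.18, against 17.92 and 17.25. Tcl1 itself had 14.71 and 14.72, against 17.53 and 17.08 (fell by 2.59 ± 0.28 SE, adjusted p = 0.006). All 6 rows of the family were called lower, with a median change of -2.64, and every one was still far above the level of silent genes at 4-cell. Its paralogs are alike in sequence, so the 5 Tcl1b rows may share signal. The family was singled out after its values were seen. From 1-cell to early 2-cell, on arrays outside this step, its named members changed by 0.15 to 0.93 and none was called. They were lower in the neighbouring steps as well, which share arrays with this one. From early to late 2-cell Tcl1b5 (-2.27), Tcl1b4 (-2.01) and Tcl1b3 (-1.88) were called, and from 4-cell to 8-cell the named members were all called, with changes between -5.20 and -3.41.

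Because these neighbouring genes fell together, the sequences just before their starts were set side by side. The 120 bases before the RefSeq start (build GRCm38.p6, all on the plus strand) are given for 3 of them, chr12:105159584-105159703 for Tcl1b1, chr12:105202275-105202394 for Tcl1b4 and chr12:105176224-105176343 for Tcl1b5. Capitals mark the longest run, 25 bases, that is identical in the stretches of all 5 Tcl1b genes.
Tcl1b1: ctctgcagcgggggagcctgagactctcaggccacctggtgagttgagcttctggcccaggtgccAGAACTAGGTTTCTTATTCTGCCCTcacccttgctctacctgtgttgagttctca
Tcl1b4: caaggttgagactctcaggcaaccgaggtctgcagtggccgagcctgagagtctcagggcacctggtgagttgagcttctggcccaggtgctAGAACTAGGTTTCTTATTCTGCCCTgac
Tcl1b5: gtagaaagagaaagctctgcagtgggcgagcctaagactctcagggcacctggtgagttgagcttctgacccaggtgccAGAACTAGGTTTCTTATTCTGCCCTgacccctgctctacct
The run begins 55, 28 and 41 bases before the start in Tcl1b1, Tcl1b4 and Tcl1b5. In the same strand, among 27025 genes with a window in the table, it was found in these 5 alone. The match describes related copies and names no factor.

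The other leading falls were of maternal and 2-cell transcripts. Bmp5, a BMP ligand, read 11.28 and 10.25 at 4-cell, against 14.28 and 13.04 at late 2-cell, and Bcl2l10, a Bcl2-family protein of the oocyte, 12.66 and 12.49, against 15.50 and 14.78. Both were already high in MII oocytes (13.95 and 17.42 on average). Zfp735, a zinc-finger gene, had 7.05 and 7.68 at 4-cell, against 10.00 and 10.78. Tram1, which helps nascent chains enter the endoplasmic reticulum, read 10.43 and 9.99, against 13.15 and 12.43, and it was the exception in its course, with 9.64 at 8-cell, 11.54 in morulae and 12.33 in blastocysts. By contrast AA414992, D13Ertd608e and Rfpl4b were transcripts of the 2-cell burst. AA414992 read 12.32 and 12.21 at 4-cell, against 15.43 and 15.44 at late 2-cell, and had been at 4.98 in 1-cell and 15.89 in early 2-cell embryos. Rfpl4b, Ifitm6 of the interferon-induced membrane proteins and the non-coding AA545190 ended nearest to silence, with 4-cell values between 5.16 and 6.06.

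Of 26 genes of the 2-cell burst tested, 13 fell, 13 were not called and none rose, with a median change of -1.58 beside 0.00 for all rows. For comparison, 1.06% of all tested rows and 2.05% of rows above the level of silent genes were called lower. The median was -1.75 in superovulated and -1.52 in natural-cycle embryos, and all 26 were still above the level of silent genes on both 4-cell arrays. Of the Usp17l deubiquitinases 4 of 5 fell, among them Usp17ld (7.25 and 7.40 at 4-cell, against 10.42 and 8.93). Tmem92, a membrane protein gene, had 11.38 and 10.67, against 13.74 and 13.08 (fell by 2.38 ± 0.30 SE, adjusted p = 0.00732). Of the 6 Zscan4 genes, which act at telomeres and chromatin of 2-cell embryos, 2 were called, though the 6 changes were close to each other (-1.73 to -1.45). Zscan4c read 9.64 and 7.96 at 4-cell, against 10.91 and 9.89 at late 2-cell (-1.60 ± 0.48 SE, adjusted p = 0.116). Tdpoz3 of the MATH-BTB family fell (10.20 and 10.15, against 12.31 and 11.09), whereas its relative Tdpoz2 changed by 0.05 only (adjusted p = 0.979). Over the 7 tested Tdpoz rows the median change was -1.53, and 3 were called lower. Zfp352 fell as well, to 6.46 and 6.43 at 4-cell, against 8.81 and 7.15 at late 2-cell. In place of 13, the list had 3 and 0 falls without the superovulated or the natural-cycle 4-cell array, and 4 and 14 without the superovulated or the natural-cycle late 2-cell array.

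Of 78 genes of the oocyte and maternal store, 20 fell, none rose and 58 were not called, with a median change of -0.71. The shares called lower were 1.06% of all tested rows and 2.05% of rows above the level of silent genes. The list was uneven. All 7 members of its Tcl1 and survival group fell, and so did 3 of 9 Nlrp genes and 3 of 12 transcription and chromatin factors, but none of the 7 zona pellucida and egg surface genes was called (median -0.18). Bmp15, an oocyte-secreted factor, read 14.45 and 14.21 at 4-cell, against 16.39 and 16.09 at late 2-cell (fell by 1.91 ± 0.34 SE, adjusted p = 0.0205). Its partner Gdf9 read 8.75 and 8.39, against 9.10 and 8.64 (-0.30 ± 0.23 SE, adjusted p = 0.625), and the zona gene Zp3 12.81 and 12.99, against 12.87 and 13.21. The values of Zp3 overlapped between the stages. The Obox homeobox genes, seen as a group only after their values, also split. Obox1, Obox2, Obox3 and Obox5 fell by 1.48 to 1.90, whereas Obox6 read 14.01 and 13.43 at 4-cell, against 13.39 and 13.13 at late 2-cell, and was not called (adjusted p = 0.757). In place of 20, the oocyte list had 4 and 0 falls without the superovulated or the natural-cycle 4-cell array, and 4 and 15 without the superovulated or the natural-cycle late 2-cell array.

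Of the machinery that removes maternal RNA, 2 genes were called. Of 32 RNA decay genes 2 fell, both of deadenylation, and none rose. Of all tested rows 1.06% were called lower, and 2.05% of rows above the level of silent genes. The list median was -0.19, and it ranged from -0.39 to -0.002 when 1 array was left out. Btg4, the adaptor that brings the CCR4-NOT deadenylase to maternal RNAs, had 14.78 and 15.28 at 4-cell, against 16.78 and 16.71 at late 2-cell (fell by 1.72 ± 0.29 SE, adjusted p = 0.0195). Cnot6l, a catalytic subunit of that deadenylase, had 9.21 and 9.01, against 10.73 and 10.05.

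Where the rows called in this step stood earlier was taken from arrays outside it, although the same estimate of the spread enters both calls. Among the 325 falling rows, 114 (35.1%) had been called higher from 1-cell to early 2-cell, against 11.4% of all tested rows and 20.6% of rows above the level of silent genes. A further 31 (9.54%) had been called lower there, against 10.1% of all rows and 14.9% of rows above the level of silent genes. Among the 310 rising rows, 65 (21.0%) had been called higher and 61 (19.7%) lower from 1-cell to early 2-cell. In MII oocytes 80.9% of the falling and 71.6% of the rising rows were above the level of silent genes on both arrays, against 82.4% of all rows above that level at 4-cell or late 2-cell.

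**Figure D3:**
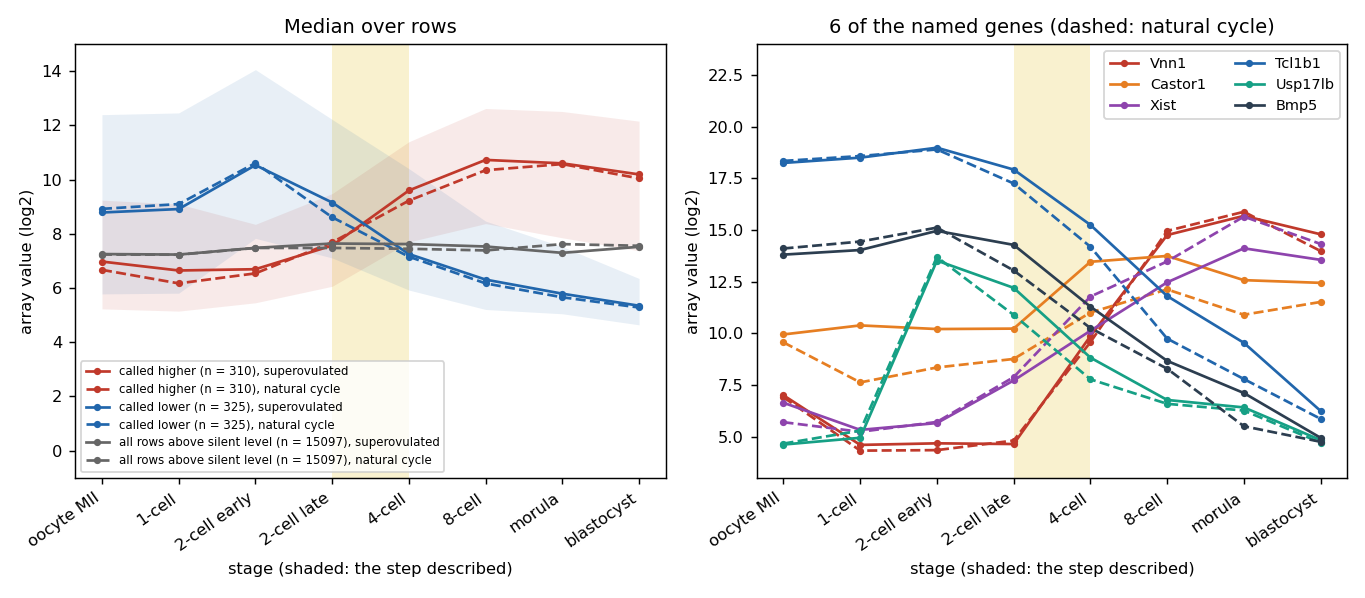
Array values (log2, y axis) over the 8 stages (x axis), solid lines for superovulated and dashed lines for natural-cycle embryos, with the step shaded. Left, medians of the 310 rows called higher, the 325 called lower and 15097 rows above the level of silent genes, with quartile bands for superovulated embryos, and right, 6 named genes. Rows called lower have a superovulated median of 10.53 at early 2-cell and 5.35 in blastocysts, and the crossing at the shaded step is set by the choice of rows.

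Of all tested rows 1.01% were called higher and 1.06% lower, and of rows above the level of silent genes 2.02% and 2.05%. A single call in a list of about 20 genes therefore carries little weight. The median of the pluripotency regulators was 0.19, and 0.09 to 0.30 when 1 array was left out. Of the pluripotency regulators, 3 of 28 rose and none fell. Beside Tdgf1 these were Klf2, a factor of naive pluripotency (7.51 and 7.23 at 4-cell, against 5.69 and 5.74 at late 2-cell, 1.66 ± 0.24 SE, adjusted p = 0.0112), and Utf1, a chromatin factor of embryonic stem cells (6.81 and 6.54, against 5.00 and 5.16, both late 2-cell values at the level of silent genes). Nanog had a change of 2.84 ± 0.68 SE that missed the threshold (adjusted p = 0.0591), with 3.61 in superovulated and 2.07 in natural-cycle embryos. Of 20 trophectoderm genes 1 rose, Tead4, the transcription factor needed for that lineage and partner of Yap in the Hippo pathway. Tead4 read 11.33 and 11.35 at 4-cell, against 9.12 and 9.81 at late 2-cell (1.87 ± 0.27 SE, adjusted p = 0.0126), and it was the 1 called of 23 Hippo pathway genes. Of 17 primitive endoderm genes Foxa1 alone was called. Gata6 read 7.13 and 6.52, against 5.53 and 5.59 (1.26 ± 0.31 SE, adjusted p = 0.0628). Compaction and polarity genes had 1 fall in 29, the microvillar actin bundler Vil1 (7.61 and 7.64, against 8.63 and 8.74), and junction and cavitation genes 1 rise in 20, the tight junction claudin Cldn7 (7.47 and 7.32, against 6.45 and 6.41).

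Lists of protein synthesis genes had positive medians, while few of their members passed the test. Translation initiation factors had 6 rises and no fall among 30, the highest share of the synthesis lists, with a median change of 0.61. These calls rested on each array of the step and were not kept when 1 array was left out. The list median was then 0.54 to 0.72. The eIF3 subunit Eif3d read 13.78 and 13.06 at 4-cell, against 11.83 and 11.74 at late 2-cell (1.64 ± 0.30 SE, adjusted p = 0.0239), and Eif3b and Eif3k of the same complex changed by 1.54 and 1.28. Eif2b2, a subunit of the exchange factor of eIF2, had 11.42 and 10.61, against 9.58 and 9.34. Ribosomal proteins had 2 rises among 34, Rpl10a (10.42 and 9.55, against 8.06 and 8.42) and Rpl38 (12.81 and 12.72, against 11.14 and 11.50), and the highest median of the 47 lists, 0.78. For 32 of the 34, both 4-cell arrays stood above both late 2-cell arrays, against 22.2% of all tested rows. The 22.2% includes rows at the level of silent genes, whereas all 34 were above it on the 4 arrays, so the shares are not strictly comparable. Only these 34 of 78 listed ribosomal protein genes were tested. Ribosome biogenesis had 3 rises among 61 (median 0.38): Mybbp1a, Heatr1 and the RNA polymerase I subunit Polr1b. The 20 aminoacyl-tRNA synthetases had none called (median 0.41), and Farsa had 9.88 and 9.71, against 8.01 and 8.70 (adjusted p = 0.0604). The elongation factor Eef1a1 was the 1 of 14 housekeeping genes called (16.76 and 16.51, against 15.76 and 15.78), and the median of that list was 0.02.

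**Figure D4:**
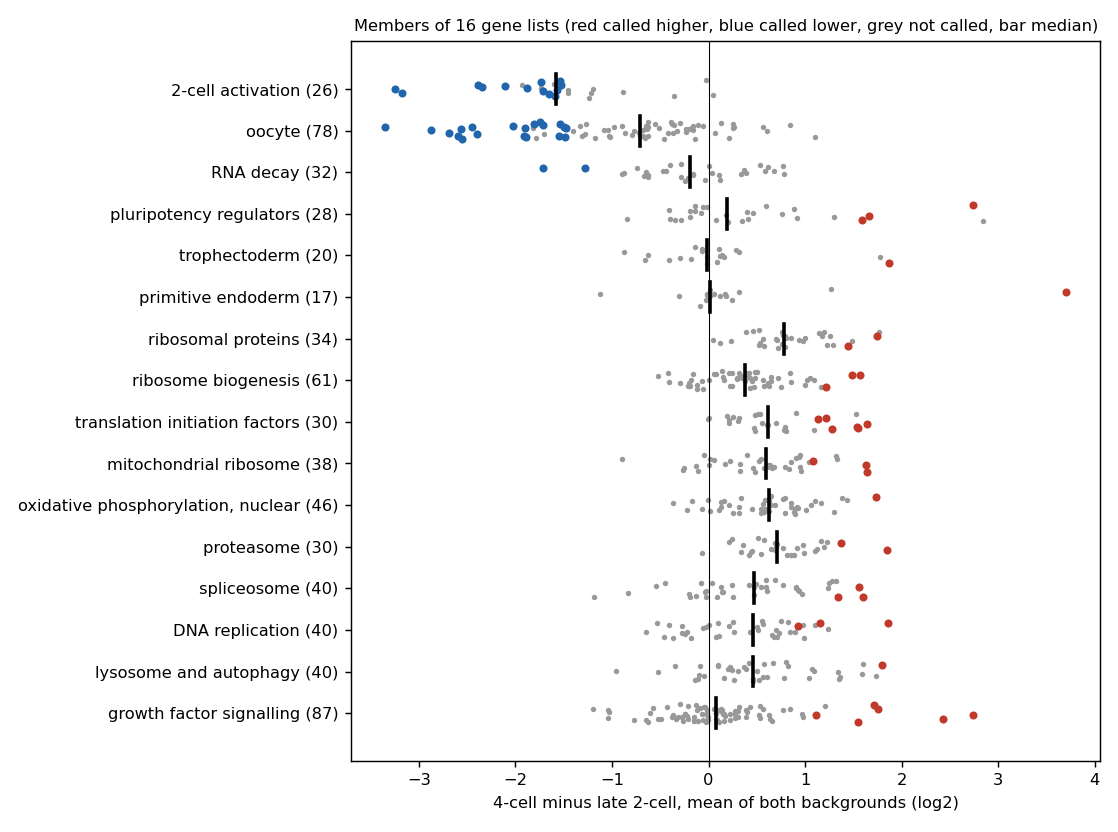
Change (4-cell minus late 2-cell, mean of both backgrounds, log2, x axis) of the tested members of 16 gene lists (y axis, number tested in brackets), 1 point per gene, red called higher, blue called lower, grey not called, black bar the list median. The 2-cell and oocyte lists lie left, with medians of -1.58 and -0.71, and the ribosomal and proteasome lists right, with medians of 0.78 and 0.70.

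Lists of mitochondrial and turnover genes also had positive medians and few calls. Of 46 nuclear genes of oxidative phosphorylation 1 rose, Uqcrc1 of complex III (10.62 and 9.59 at 4-cell, against 8.34 and 8.39 at late 2-cell), while the list median was 0.62 and 33 of the 46 did not overlap in the upward direction, against 22.2% of all tested rows. Of 38 mitochondrial ribosome genes 3 rose (Mrpl15, Mrps31 and Mrps18b, median 0.59). Mrpl15 had 8.87 and 8.99, against 7.21 and 7.38 (1.64 ± 0.26 SE, adjusted p = 0.0146). The 5 mitochondrially encoded genes tested had none called and a median of -0.13, and ND2 read 17.52 and 17.20, against 16.69 and 17.03. Of 30 proteasome genes 2 rose, the core subunit Psma7 (10.17 and 10.30, against 7.94 and 8.84) and the regulatory subunit Psmd13, with a list median of 0.70 and 26 of the 30 that did not overlap upward, against the same 22.2%. As for the ribosomal proteins, the 22.2% includes rows at the level of silent genes, so it is not strictly comparable with either list. Of 40 lysosome and autophagy genes Ulk1, the kinase that starts autophagy, rose (13.17 and 12.94, against 11.52 and 10.9958, 1.79 ± 0.28 SE, adjusted p = 0.0146). Several lists were pooled after their values were seen. They were ribosomal proteins, ribosome biogenesis, initiation factors, tRNA synthetases, mitochondrial ribosome, oxidative phosphorylation, proteasome, spliceosome, DNA replication and lysosome. In this pool 24 of 379 genes rose and 0 fell, against 1.01% of all tested rows and 2.02% of rows above the level of silent genes called higher. Each pooled list had a positive median, so the choice favours rises and no conclusion is drawn from the pooled share. With either 4-cell array left out 0 of the 379 were called, and 2 and 9 were called without the superovulated or the natural-cycle late 2-cell array. None of 10 COP9 signalosome, 20 citric acid cycle or 21 ER stress genes was called. Of 22 glycolysis genes 1 rose, Pfkfb3, which makes the activator of phosphofructokinase (8.94 and 8.97, against 7.49 and 7.48).

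Genes of the cell cycle were called singly. DNA replication had 3 rises in 40 (median 0.46): Cdc6, which loads the replicative helicase at origins (12.96 and 12.49 at 4-cell, against 10.77 and 10.97 at late 2-cell, 1.85 ± 0.34 SE, adjusted p = 0.0248), the thymidylate synthase gene Tyms (9.58 and 9.68, against 8.49 and 8.47) and the polymerase subunit Pold1. Of 40 mitosis genes 1 rose, Cdc25a, the phosphatase that activates cyclin-dependent kinases (10.62 and 11.09, against 8.32 and 9.44, 1.98 ± 0.35 SE, adjusted p = 0.0202). Of 24 G1/S genes 1 fell, E2f5, a repressor of the E2F family (12.72 and 12.60, against 14.54 and 13.96). Of 40 spliceosome genes 3 rose (median 0.47), Eftud2, Lsm4 and Srsf6, and of 27 nuclear pore and import genes 2, Nup133 and Kpna4. None of 55 genes of RNA polymerase II and Mediator was called (median -0.06).

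A few signalling genes were called higher, most of these of the PI3K and mTOR group. Of 87 growth factor signalling genes 6 rose and none fell, 4 of them among 21 PI3K and mTOR genes. Of all tested rows 1.01% were called higher, and 2.02% of rows above the level of silent genes. The list as a whole hardly moved (median 0.08), and neither did the PI3K and mTOR group (0.08, with -0.02 in superovulated and 0.21 in natural-cycle embryos). Beside Castor1, Ddit4, an inhibitor of mTORC1, read 9.91 and 9.32 at 4-cell, against 7.95 and 7.86 at late 2-cell. Igf2r, the imprinted receptor that clears IGF2, read 11.21 and 11.66, against 9.28 and 10.08 (1.76 ± 0.27 SE, adjusted p = 0.0142). Fgfr3, a receptor of FGF, had 7.81 and 7.90, against 5.22 and 5.62 (2.43 ± 0.30 SE, adjusted p = 0.00732). No gene of the Nodal, BMP and TGF beta group was called, Bmp5 not being one of its 22 listed members. In place of 6, the list had 1 and 0 rises without the superovulated or the natural-cycle 4-cell array, and 1 and 6 without the superovulated or the natural-cycle late 2-cell array. Of 26 imprinted genes Xist, Igf2r and Impact rose. The small RNA pathway had 3 rises in 18, Mov10, the exporter of precursor miRNAs Xpo5 (10.22 and 10.44, against 8.42 and 8.51) and Ago1, though the list median was -0.12. Of 24 amino acid and nucleoside transporters Slc7a6, a cationic amino acid exchanger, rose (9.71 and 9.29, against 7.52 and 8.28) and the cystine carrier Slc7a11 fell (7.07 and 6.47, against 8.09 and 8.16).

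Chaperones had 3 rises in 23, against 1.01% of all tested rows and 2.02% of rows above the level of silent genes. They were the chaperonin subunits Cct7 and Cct5 and the co-chaperone Stip1 (16.47 and 16.61 at 4-cell, against 15.16 and 15.54 at late 2-cell). The list median was 0.21, with 0.08 in superovulated and 0.50 in natural-cycle embryos. It ranged from 0.03 to 0.52 when 1 array was left out. Epigenetic lists had a single call. None of 16 DNA methylation, 23 Polycomb and H3K9 methylation, 35 histone acetylation and demethylation or 16 histone genes was called, and of 19 SWI/SNF subunits Dpf2 rose (11.97 and 11.59, against 10.85 and 10.64, adjusted p = 0.0498). The linker histones had opposite signs without passing the test, H1f8 of the oocyte (10.71 and 9.24, against 11.43 and 11.19) and H1f5 (6.32 and 5.52, against 3.96 and 4.46). Of 30 p53 and apoptosis genes Sesn1, a p53 target that restrains mTORC1, rose (8.19 and 8.37, against 7.39 and 7.33). Of 26 glutathione and antioxidant genes Vnn1 alone was called, and none of 20 cholesterol synthesis genes (median -0.28).

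The promoters of rising and falling genes were described by their base composition, without a test. Windows from 250 bases before to 50 after the RefSeq start (GRCm38.p6, first listed start) were at hand for 17979 tested genes, 202 of them called higher and 204 lower. The median number of CpG dinucleotides per window was 19 for rising genes and 6 for falling genes, against 12 over all tested genes and 20 over genes not called but above the level of silent genes. Falling genes had the CpG-poor windows, and rising ones had a median near that of other expressed genes. A GC box, the 9 letters GGGGCGGGG bound by Sp factors, was found on either strand in 26.2% of rising and 9.8% of falling genes, against 14.8% of all and 20.9% of the expressed genes not called. A TATA box (TATAAA, either strand) was found in 6.93% of rising and 17.6% of falling genes, against 12.9% of all and 7.58% of the expressed genes not called. The Ets site CCGGAAGT (either strand) was found in 9.41% of rising and 2.45% of falling genes, against 5.06% of all and 8.67% of the expressed genes not called. None of these letter strings contains another, and 16 motifs were searched in all. The GC box and the Ets site each contain a CpG, so their shares are not independent of the CpG counts. Related copies such as the Tcl1b genes were counted as separate falling genes.

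To show these forms, 120 bases before the start are given for 2 falling genes of the 2-cell burst and 2 rising genes, with the TATA box (Usp17lb, Zscan4b) or the GC box (Rflnb, Cdc25a) in capitals. They lie at chr7:104842584-104842703 (minus strand), chr7:10905051-10905170 (minus), chr11:76027783-76027902 (minus) and chr9:109875459-109875578 (plus).
Usp17lb: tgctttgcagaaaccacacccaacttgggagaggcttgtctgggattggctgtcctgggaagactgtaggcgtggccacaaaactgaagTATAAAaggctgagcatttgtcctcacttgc
Zscan4b: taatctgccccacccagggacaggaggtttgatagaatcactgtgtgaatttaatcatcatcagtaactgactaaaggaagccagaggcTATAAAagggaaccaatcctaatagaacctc
Rflnb: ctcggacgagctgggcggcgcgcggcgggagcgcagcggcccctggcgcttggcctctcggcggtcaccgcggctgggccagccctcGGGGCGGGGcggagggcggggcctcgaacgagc
Cdc25a: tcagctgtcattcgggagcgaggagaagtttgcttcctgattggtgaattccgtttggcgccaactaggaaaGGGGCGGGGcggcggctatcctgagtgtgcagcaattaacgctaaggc
The TATA letters begin 31 bases before the start in both 2-cell genes, and the stretches hold 1 CpG in Usp17lb and none in Zscan4b, against 20 in Rflnb and 8 in Cdc25a. A match is a description of letters and not a shown site.

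The step was then compared between the backgrounds gene by gene, by the test of the difference itself. The change differed for 18 rows (0.0587%), 13 with the larger value in superovulated and 5 in natural-cycle embryos. None of the 635 rows called in the step was among them. The averaged test favours rows that moved alike in both backgrounds, so no conclusion is drawn from this absence. In 13 of the 18 at most 1 of the 2 arrays was above the level of silent genes at each stage. Only 4 were called among rows above that level, and 0 by limma's eBayes without a trend (1433 at an unadjusted p below 0.05). Beside Sting1 and Clec4a1 they were receptor, miRNA and predicted rows, among them snRNA and snoRNA rows. Sting1, the adaptor of cytosolic DNA sensing, had 6.34 and 4.66 in superovulated and natural-cycle 4-cell embryos, against 5.32 and 6.62 at late 2-cell, so it changed by 1.01 in superovulated and -1.96 in natural-cycle embryos (difference 2.98 ± 0.37 SE, adjusted p = 0.0272). The median SE of a difference was 0.44 over all tested rows, and the smallest difference called was that of Mir106b (-1.70).

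**Figure D5:**
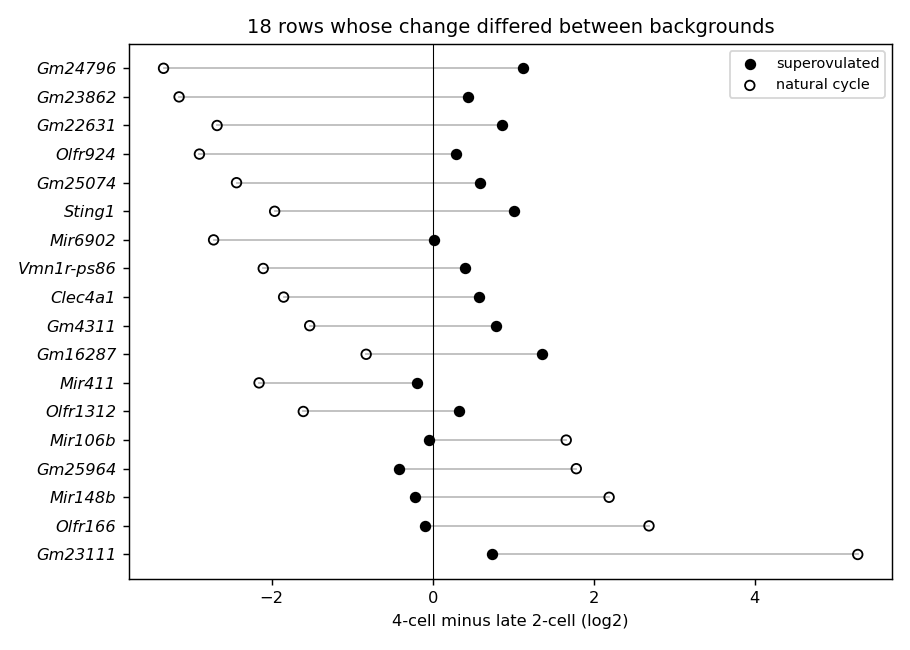
Change (4-cell minus late 2-cell, log2, x axis) in superovulated embryos (filled) and natural-cycle embryos (open) for the 18 rows whose change differed between backgrounds (y axis). Sting1 moved by 1.01 and -1.96, and Gm23111 by 0.74 and 5.28.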

How the data were processed

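The deposited table held log2 signals of 16 whole-transcript Affymetrix arrays, 1 per stage and hormone background, made by the authors from amplified, biotin-labelled cDNA. The submitters' processing notes name Affymetrix Expression Console. The settings used for these arrays and the genome build are not given in the sources used here. All 16 columns matched samples of the series.

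Rows with exactly 1 gene symbol were tested. Rows with several (2168) or no symbol (39688) and 186 control rows were left out. Differences between stages were fitted with limma 3.58.1 in R 4.3.3 (16 arrays, stage plus stimulation, empirical Bayes with trend, 7 residual degrees of freedom), and p-values were adjusted by Benjamini-Hochberg. The stimulation term linked the arrays of 1 background across stages. Differences between backgrounds had 5 residual degrees of freedom. The number of arrays, and not depth, limits precision. The functions were tested on simulated data.

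The text names the 15 largest rises and falls called alike in both backgrounds and above the level of silent genes at the higher stage, without predicted, clone or receptor symbols, up to 4 called members per list and direction (else the 2 largest changes), stage markers and the largest background differences. The 47 gene lists and the members were chosen with earlier results of these data known. Other scalings, filters, models and array subsets were tried.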

Additional observations from a re-analysis of the deposited data

Results flagged for a closer look

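The change from late 2-cell to 4-cell embryos differed between superovulated and natural-cycle embryos for 18 rows, by the test of the difference (limma, 16 arrays). Differences are given as the change in superovulated minus the change in natural-cycle embryos (log2). The value was negative for Gm23111, an snRNA (-4.54), Olfr166 (-2.79), Mir148b (-2.41), Gm25964 (-2.21) and Mir106b (-1.70). It was positive for Olfr1312 (1.93), Mir411 (1.97), Gm16287 (2.19), Gm4311 (2.32), Clec4a1 (2.42), Vmn1r-ps86 (2.51), Mir6902 (2.73), Sting1 (2.98), Gm25074 (3.02), Olfr924 (3.19), Gm22631 (3.54), Gm23862 (3.59) and Gm24796 (4.46). In the 13 positive rows the natural-cycle change was negative. In all 13 the natural-cycle late 2-cell value lay above the superovulated one, and in the 5 negative rows the natural-cycle 4-cell value lay above the superovulated one. Gm23862, Gm22631 and Gm25074 are snoRNA rows of chromosome 7. Each stage and background had 1 array, so none of these values has a replicate.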

How the results depend on the processing

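Of the 635 calls of the step (310 higher, 325 lower), 0 were made on the 4 arrays alone (0 higher, 0 lower), where 5165 rows had an unadjusted p below 0.05 by limma. There were 394 without the MII oocyte arrays (186 higher, 208 lower) and 990 by eBayes without a trend (514 higher). A plain analysis of variance called 125 (71 higher, 54 lower), and array weights called 475 higher. Testing the rows above the level of silent genes gave 1279 calls (644 higher, 635 lower), and testing all rows of the table gave 161 (82 higher, 79 lower). Without the stimulation term, the replicate block that links the arrays of 1 background across stages, 282 were called (125 higher, 157 lower). Leaving out 1 array gave 3 to 538 calls, with 2 to 228 higher and 1 to 327 lower. Brighter-row, housekeeping, quantile and loess scalings gave 627 to 866 calls. The direction of the called rows could hardly change in these settings, since their arrays did not overlap between the stages, and the cause of the changes in number was not tested. The 18 differences between backgrounds became 4 among rows above the level of silent genes (564 at an unadjusted p below 0.05) and 0 by eBayes without a trend (1433). With windows of 100 bases before the start, a GC box was found in 20.3% of rising genes, and a TATA box in 3.47% of rising and 11.3% of falling genes. ND6 and Zp3 were not called, and their changes turned sign, with -1.27 to 0.53 for ND6 and -0.47 to 0.20 for Zp3 when 1 array was left out (0.11 for Zp3 without the superovulated 4-cell array). With 1 array per stage and background, the number of arrays limits precision, and values near the level of silent genes carry little signal over background.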
